A study of Mus musculus with 9 samples.

Results

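The unfolded protein response is the signalling system by which a cell adjusts its endoplasmic reticulum (ER) to the load of secreted protein. Its sensors and their direct effectors were followed here as 8 genes: Ern1 (the sensor IRE1), Xbp1 (the transcription factor that IRE1 activates), Eif2ak3 (the sensor PERK), Atf6 and Atf6b (membrane-held transcription factors), Creb3l2 (a related membrane-held factor), and Mbtps1 and Mbtps2 (the proteases that release them). They were taken by gene symbol from the deposited count table, where all 8 were present among 46958 genes, and all 8 passed the filter on low counts that left 14199 genes. The cells were CD138-positive plasma cells isolated with beads from the spleens of 3-month-old, non-immunized mice of a mixed C57/BL6x129/SVxBALB/c background, with a stated purity above 80%. Each of the 9 libraries was made from the cells of 1 spleen. There were 3 genotypes with 3 mice each, WT, DH-LMP2A and kFRA (LCDD). The labels do not describe the alleles. From published descriptions of these lines, the DH-LMP2A allele puts the viral protein LMP2A, a stand-in for the B cell receptor, in the heavy-chain locus, so that plasma cells form without a heavy chain. In the kFRA line a light chain from a patient with light chain deposition disease (LCDD) is expressed on that background, so that the free light chain is made with no heavy chain. By its title, the series asks how such a light chain harms the plasma cells that make it.

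IRE1, PERK and ATF6 sit in the ER membrane and are held inactive in part by the chaperone BiP. Active IRE1 cuts Xbp1 mRNA, which is religated into the form that encodes the active factor, and can also degrade other ER-bound mRNAs. PERK phosphorylates eIF2α, which slows translation while favouring ATF4. ATF6 moves to the Golgi, where the site-1 and site-2 proteases cut it free. Plasma cells are the textbook case of a cell that needs XBP1 for its secretory machinery.

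Total counts were 15449026 to 21558128 per library. Immunoglobulin transcripts took 27.3% to 55.4% of them, so levels are given as CPM, counts relative to the library total, after TMM scaling, a method that discounts the most abundant genes. The immunoglobulin share was 27.3% to 32.5% in DH-LMP2A and 43.57% to 55.4% in WT, without overlap. The TMM factors were 1.05 to 1.17 and 0.779 to 0.966 in the same order. Between these 2 genotypes, effects of genotype and of library composition cannot be told apart. Sdc1, which encodes CD138, was at 302 to 693 CPM in the 9 libraries, and no marker of the plasma, B, T, myeloid or erythroid lists was at 0 in any library. The 8 plasma cell markers summed to 33080 to 45900 CPM in DH-LMP2A, 18900 to 30870 in kFRA and 18370 to 22860 in WT. In DH-LMP2A against WT 3 of them were called higher and 1 lower, where 5.07% and 7.3% of all tested genes were. Their median log2 fold change there was 0.657. In kFRA against WT 2 were higher and 1 lower, where 6.68% and 11.1% of all tested genes were, with a median of 0.385. In kFRA against DH-LMP2A 1 was lower and none higher, where 3.3% of all tested genes were lower, with a median of -0.538. There 4 of the 8 did not overlap, all lower, where 13.9% of all tested genes did so. The 8 erythroid markers summed to 2566 to 13640 CPM in DH-LMP2A and 1167 to 2807 CPM in kFRA, against 39.3 to 341 CPM in WT. The 8 myeloid markers summed to 664 to 1921, 1228 to 1920 and 2243 to 3947 CPM in the same order, and the 8 B cell markers to 362 to 537, 201 to 228 and 298 to 600 CPM. The part of these other cells in the values below was not tested, and the covariates named cannot settle it. The mean log2 CPM of the B cell markers was 3.13 to 3.74 in kFRA and 4.91 to 6.06 in WT. That covariate thus cannot be told apart from genotype there. The covariate of other cell markers averages the B cell, T cell, myeloid and erythroid lists. Their median log2 fold changes in DH-LMP2A against WT were -1.57, 0.682, -1.14 and 4.93, in opposite directions. In bulk RNA, fewer plasma cells and less RNA per plasma cell cannot be told apart. Replicate 2 of kFRA stood apart from kFRA replicates 1 and 3, with an immunoglobulin share of 29.2% against 44.04% and 45.36%.

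Per length, Xbp1 was by far the most abundant of the 8 genes in every genotype. Levels between genes are given as CPM per kilobase of exon, the length being that of the merged exons of all annotated isoforms. Xbp1 averaged 528 ± 147 CPM per kilobase in WT, against 692 ± 103 for DH-LMP2A and 638 ± 73.0 for kFRA (SD, n = 3 each), above 98.7% to 99.6% of all tested genes. The next genes, Atf6b and Creb3l2, lay between 39.0 and 77.7 CPM per kilobase, and the mean of Xbp1 was 9.6 to 11.3 times that of the second gene. Atf6b and Creb3l2 overlapped each other in every genotype. Below them came Atf6, Ern1, Eif2ak3 and Mbtps1, all between 17.6 and 38.8 CPM per kilobase. Among these 4 genes the order differed between genotypes and most neighbours overlapped. Atf6 was above Mbtps1 without overlap in every genotype, and in WT, where Mbtps1 was the next gene, the ratio of means was 1.31. Mbtps1 was above Eif2ak3 without overlap in DH-LMP2A (ratio 1.1), while Eif2ak3 was above Mbtps1 without overlap in kFRA (1.22). Mbtps2 was the lowest by a wide margin, at 0.459 to 1.28 CPM per kilobase, with 22.1% to 25.6% of all tested genes below it. The mean of the gene next above it was 18.6 to 29.1 times higher.

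**Figure D1:**
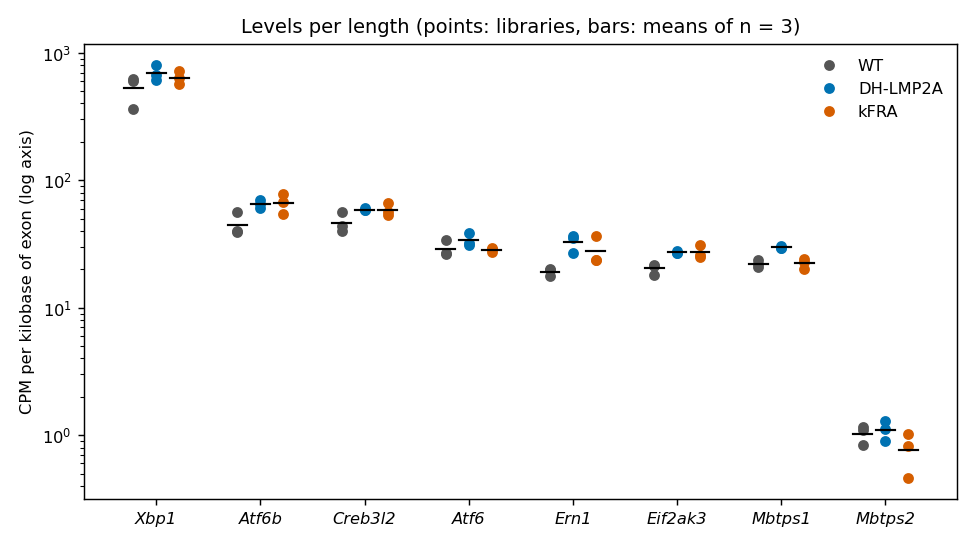
Level of each gene in CPM per kilobase of exon on a log axis. Points are libraries coloured by genotype and bars are means of 3 libraries. Xbp1 lies above 358 CPM per kilobase in every library and Mbtps2 below 1.3, and the other 6 genes lie between 17.6 and 77.7.

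IRE1 is encoded by Ern1 (chromosome 11, 106394650 to 106487852, GRCm38, 22 merged exons, no exon shared with another gene), and its best known substrate by Xbp1 (chromosome 11, 5520659 to 5525893, 4 merged exons, no exon shared). The 26 bases that IRE1 removes from Xbp1 mRNA are shown first because they decide what the Xbp1 counts mean. They are in capitals, between the flanking bases of GENCODE M21 transcript Xbp1-201, where they are bases 818 to 843. In no annotated Xbp1 transcript are the flanking bases joined directly, as in the spliced form.

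Xbp1 splice site: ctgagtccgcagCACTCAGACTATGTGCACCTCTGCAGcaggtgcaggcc

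Reads of the spliced and the unspliced form fall on the same exons and are summed in the gene's count. The Xbp1 values are thus the level of both forms together and carry no measure of IRE1 activity.

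Ern1 was at 144, 160 and 164 CPM in WT, at 221, 288 and 299 CPM in DH-LMP2A, and at 194, 298 and 195 CPM in kFRA, in replicate order. All DH-LMP2A and all kFRA libraries lay above all WT libraries, and kFRA replicate 2 lay within the DH-LMP2A range while replicates 1 and 3 lay below it. Ern1 was higher in DH-LMP2A than in WT by 0.79 on the log2 scale (SE 0.201, 95% interval 0.335 to 1.24, edgeR adjusted p = 0.0327), a 1.73-fold difference. The call was lost without DH-LMP2A replicate 2 or 3 or any WT replicate (edgeR adjusted p = 0.065 to 0.104) and with a covariate of other cell markers (0.145) or of B cell markers (0.0772), with log2 fold changes of 0.63 to 0.99. In kFRA against WT the log2 fold change was 0.55 (SE 0.201, 95% interval 0.103 to 1.0), which did not pass (edgeR adjusted p = 0.0847). It passed with the DESeq2 Wald test (adjusted p = 0.0219). Between kFRA and DH-LMP2A the difference was -0.23 (95% interval -0.682 to 0.216, edgeR adjusted p = 0.512).

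Xbp1 was at 1166, 1944 and 2033 CPM in WT, at 2620, 1971 and 2155 CPM in DH-LMP2A, and at 2324, 2040 and 1853 CPM in kFRA. The 3 genotypes overlapped, and WT replicate 1 was the one low library. None of the comparisons passed: the log2 fold change was 0.39 in DH-LMP2A against WT (95% interval -0.167 to 0.95, edgeR adjusted p = 0.368), 0.27 in kFRA against WT (-0.284 to 0.832, edgeR adjusted p = 0.447) and -0.12 in kFRA against DH-LMP2A (-0.675 to 0.44, edgeR adjusted p = 0.814). The counting error of Xbp1, with 23017 to 61921 counts per library, was at most 0.659%, small beside the spread between mice. Without WT replicate 1 the difference of kFRA from WT was 0.06.

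Eif2ak3, which encodes PERK (chromosome 6, 70844515 to 70905245, 19 merged exons), shares exon sequence with Gm43292 on the opposite strand, which makes its counts uncertain because the strand setting of the counting is not given in the sources used here. It was at 129, 110 and 131 CPM in WT, at 162, 161 and 168 CPM in DH-LMP2A, and at 155, 187 and 152 CPM in kFRA. Every DH-LMP2A and kFRA library was above every WT library, and kFRA replicate 2 was the highest of the 9. The log2 fold change was 0.41 in DH-LMP2A against WT (SE 0.132, edgeR adjusted p = 0.0773) and 0.42 in kFRA against WT (SE 0.132, edgeR adjusted p = 0.0562), so neither passed, although the intervals (0.113 to 0.707 and 0.121 to 0.715) lay above 0. Both passed with the DESeq2 Wald test (adjusted p = 0.0116 and 0.00436) and without kFRA replicate 2 (edgeR adjusted p = 0.0403 and 0.0402). The difference between kFRA and DH-LMP2A was 0.01 (95% interval -0.288 to 0.304, edgeR adjusted p = 0.982).

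**Figure D2:**
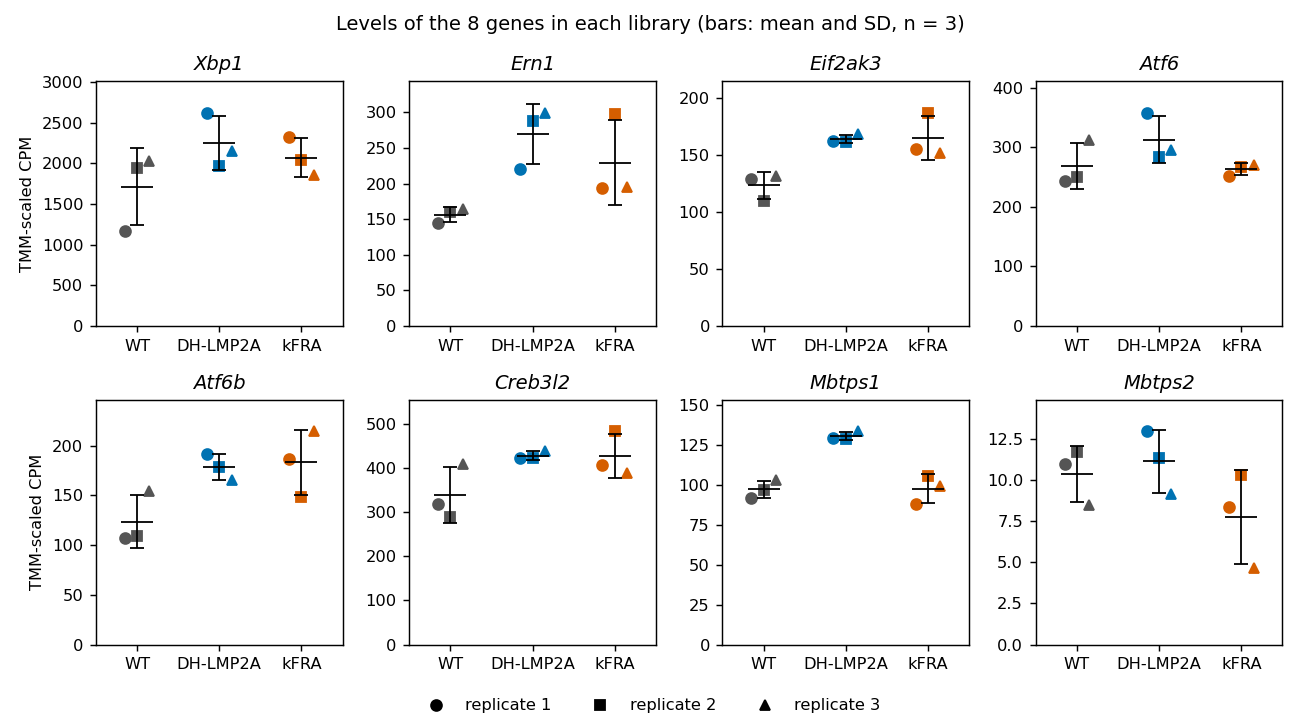
TMM-scaled CPM of each gene in the 9 libraries, by genotype, on linear axes from 0. Marker shapes are replicate numbers, horizontal bars are means and error bars are SDs of 3 libraries. Ern1 and Eif2ak3 are above WT in all DH-LMP2A and kFRA libraries, and Mbtps1 is above both other genotypes in DH-LMP2A.

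Atf6 (chromosome 1, 170704674 to 170867771, 16 merged exons, no exon shared) was at 244, 250 and 312.5 CPM in WT, at 358, 285 and 296 CPM in DH-LMP2A, and at 252, 267 and 271 CPM in kFRA. The kFRA libraries lay within the WT range and below all DH-LMP2A libraries. No comparison of Atf6 passed. The log2 fold change was 0.22 in DH-LMP2A against WT (95% interval -0.126 to 0.565, edgeR adjusted p = 0.421), -0.03 in kFRA against WT (-0.375 to 0.316, edgeR adjusted p = 0.906) and -0.25 in kFRA against DH-LMP2A (-0.594 to 0.0965, edgeR adjusted p = 0.36). Its paralogue Atf6b (chromosome 17, 34647146 to 34655074, 18 merged exons, no exon shared) was at 107, 109 and 154 CPM in WT, at 191, 179 and 165.5 CPM in DH-LMP2A, and at 187, 149 and 214 CPM in kFRA. WT replicate 3 was above kFRA replicate 2, the one overlap between WT and the other genotypes. The log2 fold change of Atf6b was 0.57 in kFRA against WT (SE 0.188, edgeR adjusted p = 0.065) and 0.53 in DH-LMP2A against WT (SE 0.188, edgeR adjusted p = 0.102), and neither passed. In kFRA against WT it passed without kFRA replicate 2 (0.76, edgeR adjusted p = 0.0167) or without WT replicate 3 (0.76, edgeR adjusted p = 0.027). In DH-LMP2A against WT it passed without WT replicate 3 (0.72, edgeR adjusted p = 0.0396). With a covariate of B cell markers the kFRA difference from WT went to -0.02.

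The ratio of Atf6 to Atf6b per length does not depend on how the libraries are scaled. It was 0.606 to 0.682 in the WT libraries, 0.475 to 0.558 in DH-LMP2A and 0.378 to 0.537 in kFRA. All WT libraries were above all others, and DH-LMP2A and kFRA overlapped. The ratio was chosen after the values were seen and is given as a description.

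Creb3l2 encodes an ER membrane factor of the CREB3 family that is released by the same proteases as ATF6 (chromosome 6, 37327255 to 37442146, 13 merged exons, no exon shared). It was at 318, 289 and 410 CPM in WT, at 422, 423 and 440 CPM in DH-LMP2A, and at 408, 484 and 390 CPM in kFRA. All DH-LMP2A libraries were above WT, while kFRA overlapped both. The log2 fold change was 0.34 in DH-LMP2A against WT (95% interval -0.0409 to 0.718, edgeR adjusted p = 0.242) and 0.33 in kFRA against WT (-0.0459 to 0.713, edgeR adjusted p = 0.188). Between kFRA and DH-LMP2A it was below 0.01 in size (95% interval -0.384 to 0.374).

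Mbtps1 encodes the site-1 protease, a Golgi enzyme that makes the first cut in ATF6, in its relatives and in the cholesterol regulators SREBP (chromosome 8, 119508156 to 119558761, 24 merged exons, no exon shared). It was at 91.9, 96.45 and 103 CPM in WT, at 129, 129 and 133 CPM in DH-LMP2A, and at 87.7, 106 and 99.4 CPM in kFRA. The DH-LMP2A libraries stood above all 6 others, and kFRA and WT overlapped. Mbtps1 was higher in DH-LMP2A than in WT by 0.43 (SE 0.115, 95% interval 0.166 to 0.685, edgeR adjusted p = 0.0416), a 1.34-fold difference. Removing any single DH-LMP2A or WT library, or kFRA replicate 1, ended the call (edgeR adjusted p = 0.0558 to 0.138), as did no filter on low counts (0.0943) and each covariate tried (0.0578 to 0.197), while the log2 fold change stayed between 0.35 and 0.47. In kFRA against DH-LMP2A it was -0.42 (SE 0.115, 95% interval -0.677 to -0.158), which did not pass (edgeR adjusted p = 0.0762) but did without kFRA replicate 2 (edgeR adjusted p = 0.039) and with the DESeq2 Wald test (adjusted p = 0.0118). Against WT, kFRA differed by 0.01 (95% interval -0.251 to 0.268).

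The site-2 protease, which makes the second cut inside the membrane, is encoded by Mbtps2 on the X chromosome (157535371 to 157598715, 14 merged exons, which overlap the exon of Yy2 on the same strand, so the counts are uncertain). It was at 10.99, 11.7 and 8.47 CPM in WT, at 12.95, 11.3 and 9.15 CPM in DH-LMP2A, and at 8.34, 10.3 and 4.64 CPM in kFRA. The genotypes overlapped, and kFRA replicate 3, with 74 counts, was the lowest. The log2 fold change was -0.52 in kFRA against DH-LMP2A (95% interval -1.15 to 0.111, edgeR adjusted p = 0.298), -0.42 in kFRA against WT (-1.05 to 0.214, edgeR adjusted p = 0.311) and 0.10 in DH-LMP2A against WT (-0.524 to 0.725, edgeR adjusted p = 0.874). With 74 to 306 counts per library, counting error alone was 5.72% to 11.6%. Xist, the transcript of the inactive X chromosome, was high in some and low in other libraries of each genotype. Mbtps2 was at 8.47 to 12.95 CPM in the 5 libraries with Xist at 495 to 924 CPM, and at 4.64 to 11.7 CPM in the 4 libraries with Xist at or below 4.49 CPM. These ranges overlapped.

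Set side by side, 2 of the 8 genes, Ern1 and Mbtps1, were called in DH-LMP2A against WT, both higher, and 3 passed with the DESeq2 Wald test. Of all tested genes, 12.4% were called there, 5.07% higher and 7.3% lower. All 8 log2 fold changes were above 0, with a median of 0.40 against -0.01 over all tested genes. The libraries did not overlap for 5 of the 8 (Ern1, Eif2ak3, Atf6b, Mbtps1 and Creb3l2), all higher. Of all tested genes, 36.6% did not overlap, 17.5% higher and 19.1% lower. In kFRA against WT no gene of the 8 was called by edgeR, although 3 had an unadjusted p under 0.05 and 3 passed with the DESeq2 Wald test. Of all tested genes, 17.8% were called there, 6.68% higher and 11.1% lower. The median was 0.30 against -0.04 over all tested genes, and 2 of 8 did not overlap, both higher. Of all tested genes, 34.3% did not overlap, 14.2% higher and 20.2% lower. In kFRA against DH-LMP2A no gene of the 8 was called by edgeR, 1 had an unadjusted p under 0.05 and 1 passed with the DESeq2 Wald test. Of all tested genes, 5.02% were called there, 1.73% higher and 3.3% lower. The median was -0.175 against -0.00487 over all tested genes, and 2 of 8 did not overlap, both lower. Of all tested genes, 25.6% did not overlap, 11.6% higher and 13.9% lower. Without kFRA replicate 2, the counts of called genes were 3 in DH-LMP2A against WT, 2 in kFRA against WT and 1 in kFRA against DH-LMP2A. The count in DH-LMP2A against WT was 0 without DH-LMP2A replicate 2 or 3 or WT replicate 1 or 2, and 1 without DH-LMP2A replicate 1, kFRA replicate 1 or WT replicate 3. For kFRA against WT it was 1 without WT replicate 3. Calls over all tested genes without kFRA replicate 2 were 2364, 5632 and 3299, against 1756, 2523 and 713 with all 9 libraries. These are in the order DH-LMP2A against WT, kFRA against WT and kFRA against DH-LMP2A. The comparisons with WT share the WT libraries, so their like values are not independent. The 8 genes were chosen with earlier results of these data known.

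**Figure D3:**
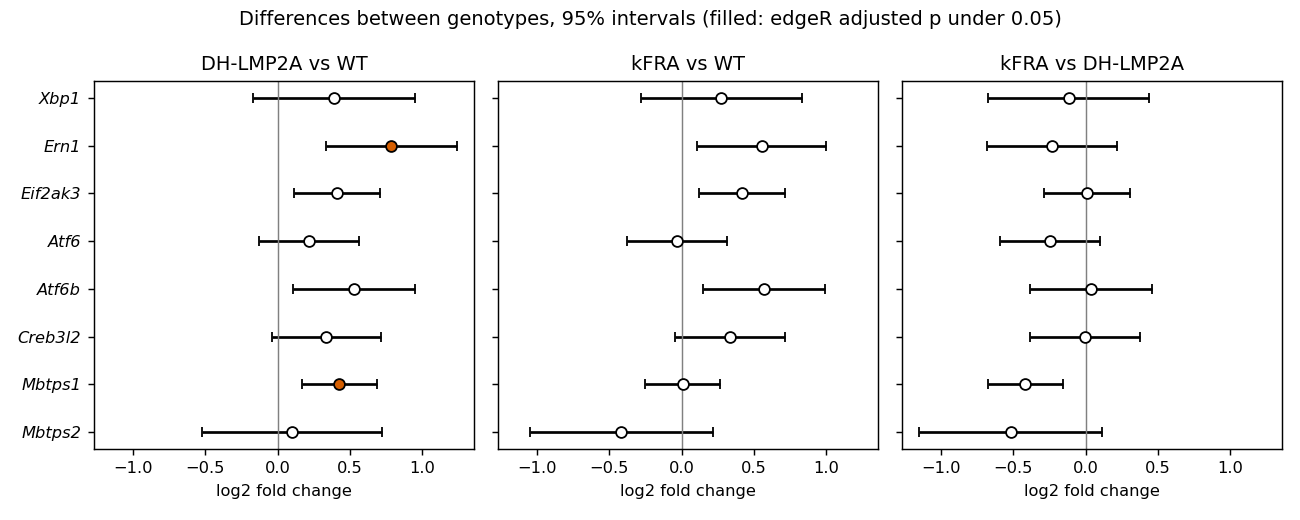
Log2 fold change of each gene in the 3 comparisons, with 95% intervals from the edgeR fit of all 9 libraries. Filled points passed an adjusted p of 0.05, which only Ern1 (0.79) and Mbtps1 (0.43) did, in DH-LMP2A against WT.

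Spread between mice differed from gene to gene. In DH-LMP2A the coefficient of variation was 2% for Mbtps1, 2.3% for Eif2ak3 and 2.4% for Creb3l2, against a counting error of 0.992% to 2.79% for these 3 genes over all libraries. In the same 3 mice it was 15.6% for Ern1 and 14.9% for Xbp1. In kFRA it was 3.75% for Atf6 and 26.1% for Ern1, where replicate 2 was the highest. WT varied most in Xbp1, at 27.8%, and least in Mbtps1 and Ern1, at 5.62% and 6.79%.

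As shares of the summed level per length of the 3 stress sensors, Atf6 was the largest in all WT libraries, with 40.4% to 44.7%, and Ern1 took 26.6% to 30.2%. In DH-LMP2A replicates 2 and 3 and in kFRA replicate 2 Ern1 was the largest, at 37.9% to 38.0%. DH-LMP2A replicate 1, at 29.2% Ern1 and 41.8% Atf6, was like the WT libraries. The share of Eif2ak3 was 28.1% to 33.5% in all 9 libraries. The sum of the 3 sensors was 64.8 to 75.7 CPM per kilobase in WT, 92.7 to 96.6 in DH-LMP2A and 76.8 to 96.4 in kFRA. All DH-LMP2A and kFRA libraries thus exceeded all WT libraries in the sum. Xbp1 was at 5.48 to 9.32 times that sum, and the genotypes overlapped.

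**Figure D4:**
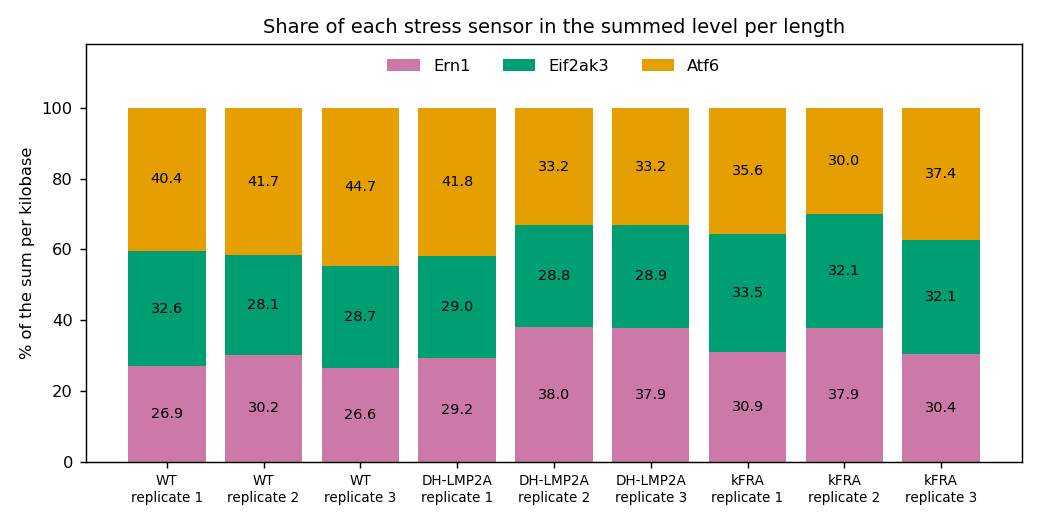
Share of Ern1, Eif2ak3 and Atf6 in their summed CPM per kilobase, 1 bar per library, with the percentages printed. Atf6 takes over 40% in all WT libraries, and Ern1 takes 37.9% to 38.0% in DH-LMP2A replicates 2 and 3 and in kFRA replicate 2.

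Across the 9 libraries, Eif2ak3 and Creb3l2 were the most alike of the 28 pairs of the 8 genes, with a Pearson correlation of log2 CPM of 0.917, followed by Ern1 with Eif2ak3 (0.859) and Ern1 with Creb3l2 (0.795). Mbtps2 was least like the rest, its correlation with the other 7 genes lying between -0.503 and 0.316. These values describe 9 libraries that share genotypes and scaling. Among 9626 other genes with a mean of at least 5 CPM, immunoglobulin genes left out, the most similar to Eif2ak3 was Apba1 (0.968), which was also second for Creb3l2 (0.907) after Atp8b2 (0.949). Apba1 shares exon sequence with AC148021.1 and is uncertain. Atf6 was most like Ero1l (0.932), which encodes an ER oxidase, and Ckap4 (0.905), an ER membrane protein. Il6st (0.941), the shared receptor chain of the interleukin 6 family, was most like Ern1, with 114 ± 0.798 CPM in WT and 235 ± 45.9 and 203 ± 35.9 in the other genotypes, DH-LMP2A first (SD, n = 3 each). Its genotype pattern likewise follows from being picked for its likeness to Ern1 in these libraries. Atf6b was most like Mrpl30 (0.979), a mitochondrial ribosomal gene, and Tmed3 (0.971), a gene of the early secretory pathway. Xbp1 was most like Mak16 (0.963), which overlaps an exon of Tti2, and Mbtps2 most like Slc35a3 (0.983), which overlaps Gm43191. For Mbtps1 the most similar were Pigs (0.979), a subunit of the enzyme that attaches glycolipid anchors in the ER, H2-Q2 (0.975) and Cul7 (0.974). H2-Q2 is a class I histocompatibility gene with similar copies and is uncertain. These 3 genes were picked for their likeness to Mbtps1 over the same 9 libraries, so their pattern across genotypes follows from that choice. Pigs was at 73.4 ± 6.28 CPM in DH-LMP2A against 41.6 ± 1.28 in WT and 41.8 ± 8.46 in kFRA. H2-Q2 was at 40.8 ± 5.62 against 4.65 ± 2.5 and 4.69 ± 1.79, and Cul7 at 15.2 ± 0.493 against 5.99 ± 0.0723 and 6.59 ± 1.17 (SD, n = 3 each).

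The promoters of the 4 genes these patterns turn on are printed, from 250 bases before to 50 after the RefSeq start (GRCm38.p6), in the direction of the gene. RefSeq entries were found for 7 of the 8 genes, all but Atf6. Both strands were searched for the ER stress element ERSE (CCAAT and, after a fixed spacer, CCACG), ERSE-II (ATTGG and, after a single base, CCACG), the XBP1 and ATF6 site TGACGTGG, the cyclic AMP element TGACGTCA, the C/EBP-ATF element TGATGCAAT and the core CCACG, which lies inside both ERSE forms. The box CCAAT, the other end of ERSE, was added after the sequences were read. Capitals mark CCACG or CCAAT on either strand. Ern1 (chr11:106487747-106488046, minus strand) and Mbtps1 (chr8:119558712-119559011, minus strand) are shown as the called genes, Eif2ak3 (chr6:70844265-70844564, plus strand) and Creb3l2 (chr6:37442099-37442398, minus strand) as the most alike pair.

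Ern1: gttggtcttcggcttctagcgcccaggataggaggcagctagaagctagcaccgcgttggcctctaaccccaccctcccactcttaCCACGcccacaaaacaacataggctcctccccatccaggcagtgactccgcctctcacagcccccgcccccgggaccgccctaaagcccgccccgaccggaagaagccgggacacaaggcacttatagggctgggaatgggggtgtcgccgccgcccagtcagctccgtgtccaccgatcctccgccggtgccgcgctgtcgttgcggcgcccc

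Mbtps1: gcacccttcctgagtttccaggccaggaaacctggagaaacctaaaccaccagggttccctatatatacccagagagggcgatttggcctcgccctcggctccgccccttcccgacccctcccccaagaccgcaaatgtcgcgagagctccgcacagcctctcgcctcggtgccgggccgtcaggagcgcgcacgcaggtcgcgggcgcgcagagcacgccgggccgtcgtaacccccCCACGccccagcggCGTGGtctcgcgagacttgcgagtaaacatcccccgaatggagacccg

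Eif2ak3: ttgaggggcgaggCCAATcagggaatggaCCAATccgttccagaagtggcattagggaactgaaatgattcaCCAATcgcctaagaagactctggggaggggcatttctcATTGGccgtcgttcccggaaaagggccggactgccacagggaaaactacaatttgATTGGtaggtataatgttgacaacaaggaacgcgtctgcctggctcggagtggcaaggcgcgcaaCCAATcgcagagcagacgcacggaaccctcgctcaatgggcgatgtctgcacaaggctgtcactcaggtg

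Creb3l2: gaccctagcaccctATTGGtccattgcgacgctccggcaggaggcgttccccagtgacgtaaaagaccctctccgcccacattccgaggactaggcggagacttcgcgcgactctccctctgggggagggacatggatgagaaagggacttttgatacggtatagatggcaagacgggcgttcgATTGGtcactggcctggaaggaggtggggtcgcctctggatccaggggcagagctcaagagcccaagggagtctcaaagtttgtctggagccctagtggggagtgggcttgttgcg

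None of the 7 promoters held ERSE, ERSE-II, TGACGTGG, TGACGTCA or TGATGCAAT in these letters, which 0.119%, 0.037%, 0.676%, 1.79% and 0.192% of all 32851 promoters held. CCACG was present in Ern1 at 164 bases before the start (-164) and in Mbtps1 at -12 and, on the other strand, at 3, and in none of the other 5, against 32.8% of all promoters. CCAAT was present in 3 of the 7, at 6 places in Eif2ak3, at 2 in Creb3l2 and at 1 in Atf6b, against 37.4% of all promoters with at least 1. At least 6 matches were found in 26 of the 32851 promoters (0.0791%). These matches are letters in a window, not sites shown to be bound.

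The other IRE1 gene, Ern2, had no count in WT and DH-LMP2A and was at or below 0.0627 CPM in kFRA, under the floor of 3 counts (0.127 to 0.205 CPM). Creb3l3 and Creb3l4, further membrane-held factors, did not pass the filter on low counts either, with at most 0.658 CPM in any library. Of the 7 tested relatives, which include the other eIF2α kinases and the SREBP genes, none was called by edgeR in DH-LMP2A against WT (4 with an unadjusted p under 0.05, 2 with the DESeq2 Wald test) or in kFRA against DH-LMP2A (1 and 0), and 1 was called, higher, in kFRA against WT, where 6.68% of all tested genes were higher. That gene was Creb3 (log2 fold change 0.75, SE 0.226, edgeR adjusted p = 0.0489), whose exons overlap Gba2 and Tln1 on the opposite strand. It was at 40.3 ± 7.98 CPM in WT and 67.7 ± 17.4 in kFRA (SD, n = 3 each), and the libraries overlapped. The call was lost on leaving out any single library other than kFRA replicate 2 or WT replicate 3, and with each covariate tried.

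Genes known as targets of each branch were counted in lists drawn up with earlier results known, so the counts describe these libraries only. Each gene was put in a single list, although XBP1 and ATF6 can act through the same site and share targets. The lists therefore do not tell the branches apart, and which branch acted on a gene was not tested. Of 12 ATF6 targets, 9 were higher in kFRA than in WT and none lower, where 6.68% of all tested genes were higher. Their median log2 fold change was 0.999, against -0.04 over all tested genes. The called genes were Hspa5, Hsp90b1, Hyou1, Pdia4, Creld2, Manf, Sdf2l1, Derl3 and Syvn1, which encode chaperones, folding enzymes and parts of the degradation machinery. The count was 10 without kFRA replicate 2 or WT replicate 3. It was 0 without WT replicate 2, 3 without kFRA replicate 1, 4 without kFRA replicate 3 or WT replicate 1, and 0 with a covariate of B cell markers. Over all tested genes, 5632 were called without kFRA replicate 2, 48.4% of them higher, against 2523 with all libraries. Atf6 and Atf6b themselves were not called in this comparison. In DH-LMP2A against WT 3 of the 12 were higher (Pdia4, Hsp90b1 and Sdf2l1), against 5.07% of all tested genes. That count was 1 without DH-LMP2A replicate 1 or WT replicate 1 or 2, 2 without DH-LMP2A replicate 2 or 3 or kFRA replicate 1, 4 without WT replicate 3, and 1 to 6 in other settings. In kFRA against DH-LMP2A only Syvn1 was higher (1 of 12), against 1.73% of all tested genes. The count there was 6 without kFRA replicate 2, and 0 without kFRA replicate 1 or 3 or any DH-LMP2A replicate. Over all tested genes, 3299 were called without kFRA replicate 2, 51.4% of them higher, against 713 with all libraries. Pdia4, a disulfide isomerase, was at 1233 ± 359 CPM in WT, 4116 ± 552 for DH-LMP2A and 2765 ± 249 for kFRA (SD, n = 3 each), and its exons hold the microRNA gene Mir704. Hspa5 (BiP) was at 2244 ± 722, 2308 ± 287 and 4151 ± 666 CPM in the same order. Hsp90b1, Manf and Syvn1 share exon sequence with other genes and are uncertain.

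Of 14 XBP1 targets, 2 were higher in kFRA than in WT, against 6.68% of all tested genes. They were Dnajc3 (0.81, SE 0.197, edgeR adjusted p = 0.0214) and Serp1 (0.77, SE 0.232, edgeR adjusted p = 0.0482). The count was 7 without kFRA replicate 2 and 3 without WT replicate 3, 0 without kFRA replicate 1 or 3 or WT replicate 1 or 2, 1 when a DH-LMP2A replicate was left out, and 0 to 9 in other settings. Over all tested genes, 5632 were called without kFRA replicate 2, 48.4% of them higher, against 2523 with all libraries. In DH-LMP2A against WT 1 of the 14 was higher, near the share of 5.07% over all tested genes, namely Edem1 (0.76, SE 0.207, edgeR adjusted p = 0.0435). That call was lost on leaving out any library other than kFRA replicate 2 or WT replicate 3, and other settings gave 0 to 7. No XBP1 target was called in kFRA against DH-LMP2A by edgeR, where 1.73% of all tested genes were higher and 3.3% lower. Of the 14, 5 had an unadjusted p under 0.05 in either direction, the smallest for Edem1, which was lower (log2 fold change -0.71). The DESeq2 Wald test called 2 higher and 1 lower. Without kFRA replicate 2, 4 were higher by edgeR, and 3299 of all tested genes were called, 51.4% of them higher. Serp1 overlaps Eif2a on the opposite strand and is uncertain. The median log2 fold change was 0.37, 0.20 and 0.24 in kFRA against WT, DH-LMP2A against WT and kFRA against DH-LMP2A.

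Of the 15 tested genes of the PERK and ATF4 branch, 2 were higher in kFRA than in DH-LMP2A, Ddit3 (CHOP, 43.1 ± 8.52 against 21.5 ± 4.45 CPM, SD, n = 3 each) and Asns (asparagine synthetase), where 1.73% of all tested genes were higher. Asns was at 26.3 ± 3.85 CPM in DH-LMP2A, 80.1 ± 34.6 in kFRA and 56.7 ± 17.6 in WT (SD, n = 3 each). The difference between kFRA and DH-LMP2A was 1.61 (SE 0.342, edgeR adjusted p = 0.0289). In kFRA against WT 2 were higher, Ddit3 and Ppp1r15a (GADD34, the subunit that reverses eIF2α phosphorylation; 0.72, SE 0.202, edgeR adjusted p = 0.0375). Ppp1r15a overlaps Tulp2, and Ddit3 overlaps Mars and Gm4189, on the opposite strand, so both are uncertain. The share of all tested genes higher in kFRA than in WT was 6.68%. Leaving out kFRA replicate 2 raised the calls over all tested genes to 3299 against DH-LMP2A and 5632 against WT. The counts of higher genes in this list were then 4 and 5. Against DH-LMP2A the count was 0 without kFRA replicate 1 or 3 or DH-LMP2A replicate 1 or 2, 1 without DH-LMP2A replicate 3, and 0 to 3 in other settings. Against WT it was 1 without kFRA replicate 1 or 3, DH-LMP2A replicate 1 or 2 or WT replicate 1 or 2, and 0 to 4 in other settings. In DH-LMP2A against WT none was higher by edgeR (0 by the DESeq2 Wald test; 3 of 15 had an unadjusted p under 0.05 in either direction) and Cebpb was lower (-1.07, SE 0.285, edgeR adjusted p = 0.0385), where 7.3% of all tested genes were lower. Cebpb has Tmem189 on the opposite strand. The count of lower genes was 2 without kFRA replicate 2, 1 without kFRA replicate 3 or WT replicate 1, and 0 on leaving out any of the others. Eif2ak3 itself differed by 0.01 between kFRA and DH-LMP2A.

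**Figure D5:**
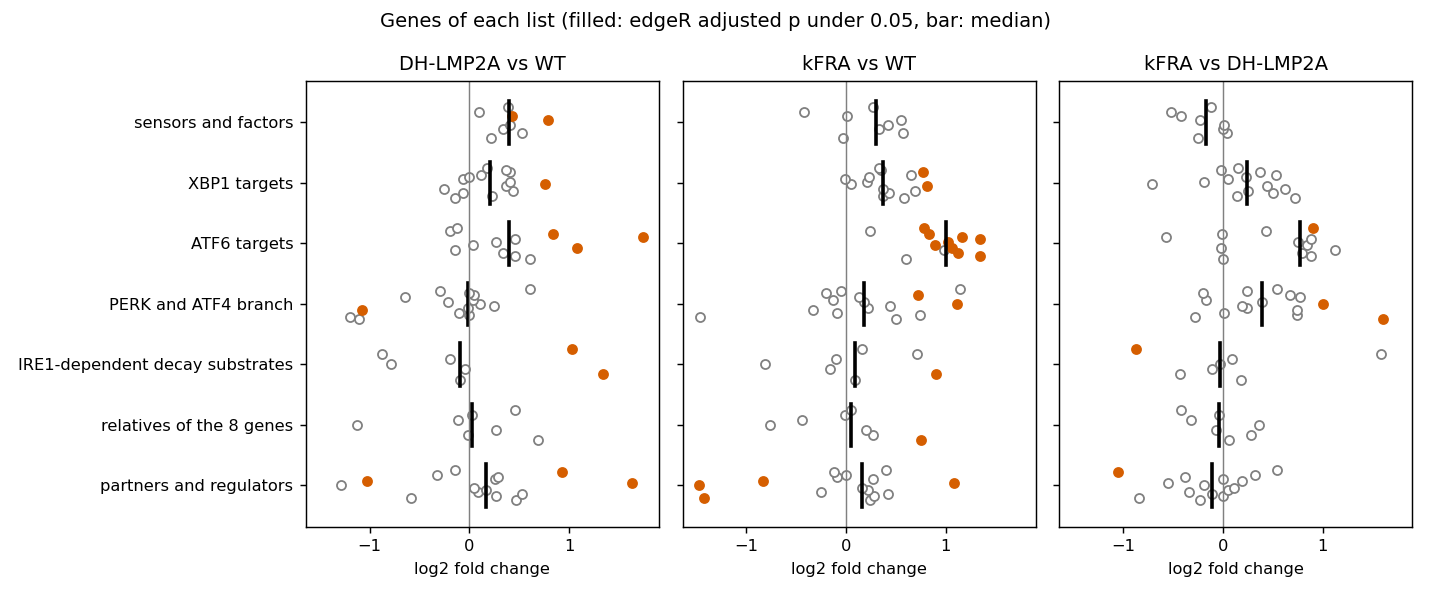
Log2 fold changes of the tested genes of each list in the 3 comparisons. Points are genes, filled where the edgeR adjusted p was under 0.05, and black bars are list medians. The ATF6 target median is 0.999 in kFRA against WT, with 9 of 12 genes filled.

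Of 7 tested substrates of IRE1-dependent decay, Tapbp (tapasin) was higher in DH-LMP2A than in WT (1.03, SE 0.144, edgeR adjusted p = 0.00205) and lower in kFRA than in DH-LMP2A (-0.87, SE 0.143, edgeR adjusted p = 0.00785), and Ergic3 was higher than in WT in both DH-LMP2A (1.34, SE 0.201, edgeR adjusted p = 0.00292) and kFRA (0.90, SE 0.2, edgeR adjusted p = 0.0151). Tapbp shares exon sequence with Zbtb22 and Gm19412. In DH-LMP2A against WT 2 of 7 were thus higher, where 5.07% of all tested genes were. In kFRA against WT 1 was higher, where 6.68% of all tested genes were. In kFRA against DH-LMP2A 1 was lower, where 3.3% of all tested genes were. The count of 2 higher in DH-LMP2A against WT was the same in all 21 other fits. The call of Ergic3 in kFRA against WT was lost without WT replicate 1 or 2 and with a covariate of B cell markers, and that of Tapbp in kFRA against DH-LMP2A without DH-LMP2A replicate 1 or kFRA replicate 1 and with a covariate of B cell or of other cell markers. The list median was -0.09, 0.09 and -0.03 in DH-LMP2A against WT, kFRA against WT and kFRA against DH-LMP2A. Bloc1s1, a widely used marker of this decay whose exons overlap Rdh5, was not called in any of the comparisons by edgeR.

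Among 15 partners and regulators of the sensors, Txndc12, an ER thioredoxin that binds ATF6, was at 17.3 ± 0.615 CPM in WT, 33.0 ± 2.04 for DH-LMP2A and 15.9 ± 2.45 for kFRA (SD, n = 3 each). It was higher in DH-LMP2A than in WT (0.93, SE 0.135, edgeR adjusted p = 0.00247) and lower in kFRA than in DH-LMP2A (-1.05, SE 0.136, edgeR adjusted p = 0.00171). Pdia6, an isomerase that acts on IRE1, was higher than in WT in DH-LMP2A (1.63, SE 0.208, edgeR adjusted p = 0.00119) and in kFRA (1.08, SE 0.205, edgeR adjusted p = 0.00743), and overlaps Atp6v1c2 on the opposite strand. Ptpn1, a phosphatase of the ER membrane, was at 191 ± 14.4 CPM in WT and lower in both DH-LMP2A (93.8 ± 11.1 CPM, log2 fold change -1.02, edgeR adjusted p = 0.00205) and kFRA (107 ± 12.9 CPM, -0.83, edgeR adjusted p = 0.00477). Gnptab, another substrate of the site-1 protease, was lower in kFRA than in WT (-1.43, SE 0.264, edgeR adjusted p = 0.0067), as was Pdia5, an isomerase that acts on ATF6 (-1.48, SE 0.408, edgeR adjusted p = 0.0357). Gnptab overlaps Gm16235 and Gm26546 on the opposite strand. In DH-LMP2A against WT 2 of 15 were higher and 1 lower, where 5.07% and 7.3% of all tested genes were. The higher count was 2 whichever library was left out and 2 to 6 in other settings, and the lower count was 2 without kFRA replicate 2 or 3. Between kFRA and WT 1 was higher and 3 lower in kFRA, where 6.68% and 11.1% of all tested genes were. The higher count was 2 without kFRA replicate 2 or WT replicate 3. Without kFRA replicate 2, 5632 of all tested genes were called, against 2523 with all libraries. The lower count was 2 on leaving out any library other than DH-LMP2A replicate 3 or kFRA replicate 3, and 0 with a covariate of B cell markers. In kFRA against DH-LMP2A 1 was lower, where 3.3% of all tested genes were, and 3 without kFRA replicate 2 or with the DESeq2 Wald test. Those fits called 3299 and 1405 of all tested genes, against 713 in the main fit.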

How the data were processed

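Stranded mRNA libraries from the plasma cells of 9 mice were sequenced from both ends, per the labels' protocols. Raw read counts per gene and the summed exon length were deposited by the authors in the layout of featureCounts, per the file headers. The submitters' processing notes name STAR 2.4.0a, featureCounts, Subread 1.5.0-p3, DESeq2 and GRCm38 (mm10). The strand setting is not given in the sources used here. Coordinates are those of the table.

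Counts were filtered with filterByExpr, scaled by TMM and tested with the quasi-likelihood F test of edgeR 4.0.16 (R 4.3.3) in 1 fit of all 9 libraries, 2-sided, with Benjamini-Hochberg adjustment over 14199 genes and a threshold of 0.05. The SE is the log2 fold change over the square root of F. DESeq2 1.42.0 was an alternative. The code was tested on simulated data. No replicate pair agreed within sampling noise (chi-square per degree of freedom 17.3 to 164). Log2 CPM for correlations used a prior count of 2. Exon overlap is from GENCODE M21. Counting errors and floors cover counting only.

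The 8 genes and the lists were chosen with earlier results of these data known. Genes named are the 8 genes, of each list the 3 with the smallest p-value per comparison, and for each of the 8 the 3 most correlated genes; the text describes a part of these, and other called list genes and Bloc1s1, Hspa5, Ern2, Creb3l3 and Creb3l4 were named after their values were seen. Rack1 was matched by its older symbol Gnb2l1.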

Additional observations from a re-analysis of the deposited data

How the results depend on the processing

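Over 21 other fits per comparison, 12 other settings and 9 that each left out a library, no called log2 fold change of the 8 genes changed sign. Of the 504 values, 465 stayed on their side of the threshold, 19 crossed it to pass and 20 ceased to pass. Only the 2 calls, Ern1 and Mbtps1 in DH-LMP2A against WT, could cease to pass, so all 20 are theirs. Ern1 passed in 9 of 12 other settings and in 4 of the 9 fits that left out a library. Mbtps1 passed in 7 of 12 and in 2 of 9. In DH-LMP2A against WT, the 2 genes past the threshold became 6 with library size alone, 3 with the DESeq2 Wald test, 1 without a filter on low counts or with a covariate of Xist, and 0 with a covariate of other cell markers, of B cell markers or with an adjusted p under 0.01. Leaving out a library gave 0 to 3. In kFRA against WT, the 0 became 3 with the DESeq2 Wald test, and 1 with DESeq2 size factors, library size alone, a covariate of Xist or without the immunoglobulin genes, and 0 to 2 when a library was left out. In kFRA against DH-LMP2A, the 0 became 1 with the DESeq2 Wald test, and 0 to 1 when a library was left out. The cause was not tested, except that leaving out a library leaves fewer samples and that 0.01 is the stricter threshold.

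With library size alone the median of all tested genes moved to 0.33, 0.17 and -0.14 in DH-LMP2A against WT, kFRA against WT and kFRA against DH-LMP2A, and 79.9%, 72% and 26% of all calls were higher, against 41%, 37.6% and 34.4% with TMM. Over all tested genes, 1756, 2523 and 713 were called, in the same order. Counts that differed by over 1.5 times were 714, 290 and 238 with a covariate of B cell markers, 1084 in DH-LMP2A against WT and 266 in kFRA against DH-LMP2A with one of other cell markers, 1094 in DH-LMP2A against WT with a mean of at least 5 CPM, 765, 975 and 306 with an adjusted p under 0.01, and 1405 in kFRA against DH-LMP2A with the DESeq2 Wald test. Leaving out a library gave 932 to 2364, 1271 to 5632 and 352 to 3299, the highest without kFRA replicate 2. The replicate numbers name different mice, as each library came from 1 spleen. Of the 9 same-numbered pairs, with correlations of -0.211 to 0.196, 4 deviated together with a correlation over 0.1. Differently numbered pairs of other genotypes had correlations of -0.267 to 0.293. Of the 9 libraries, 1 was closest to its own number in both other genotypes. With the replicate block, 2, 0 and 0 of the 8 genes passed, as without it, and 2067, 2930 and 685 genes in all. Counting error reached 11.6% for Mbtps2 and at most 2.79% for the other 7 genes.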
